A study of Mus musculus with 24 samples.

Results

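DNA methylation was followed at 5 mouse genes whose proteins write and maintain it: Dnmt1, Dnmt3a, Dnmt3b, Dnmt3l and Uhrf1. They were chosen by name, not by a measured value, from 21628 annotated genes. Each gene was read at its 2 outer ends (1000 bp on either side), along its body (the gene without 1000 bp at each end), at its annotated transcription starts (12 in all, 1000 bp on either side) and in 53 bins of 5 kb. The cells were mouse induced pluripotent stem (iPS) cells, which are somatic cells reprogrammed to an embryonic stem cell-like state, grown over feeder cells. Wild-type cells were compared with N5 and N9, which are 2 clones carrying a knock-in of the microRNA miR-203 that doxycycline switches on. Both genotypes were sampled at t=0, before doxycycline, at day 10, which was 5 days after a 5-day doxycycline pulse ended, at day 25, which was 20 days after it, and as embryoid bodies, the differentiating aggregates made in hanging drops. The labels name doxycycline for the wild type at day 10 and day 25. For embryoid bodies they name it in the clones but not in the wild type. The series' design gives 7 days of embryoid body culture up to day 32, whereas wild-type embryoid bodies are labelled with 10 days. The file headers name the wild-type columns of a stage rep1 and rep2, whereas the sample titles show lanes of 1 flow cell with 1 index. They were therefore taken as 1 library, which gives 1 wild-type and 2 clone libraries (1 per clone) at every stage, so n = 2 for the clones, and each clone is a single line. N5 ran on another flow cell than N9 and the wild type at t=0, day 25 and as embryoid bodies. At day 10 it shared theirs. The strain, and the promoter that drives the knock-in, are not given in the sources used here. RNA and protein amounts of the 5 genes were not analysed here.

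Dnmt1 is the maintenance methyltransferase, which copies CpG methylation onto the new DNA strand after replication, and Uhrf1 recognises the hemimethylated CpGs and brings Dnmt1 to them. Dnmt3a and Dnmt3b add methyl groups to unmethylated CpGs, and Dnmt3l has no catalytic activity of its own but stimulates both in the germ line and in early embryonic cells. In most genes the CpG-dense start is free of methylation while the body is methylated. The study named Dnmt3a and Dnmt3b as targets of miR-203. In RefSeq (GRCm38.p6) the 3p arm of miR-203 lies at chr12:112130927-112130948 on the plus strand, and it is shown as the microRNA that the knock-in induces, with its seed (bases 2 to 8) in capitals.
mmu-miR-203-3p: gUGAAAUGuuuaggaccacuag

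The libraries held 102896335 to 191210205 calls at CpGs, a mean of 4.70 to 8.74 calls per CpG. Over CpGs called in every library the wild type was methylated at 60.7%, 61.5% and 61.2% at t=0, day 10 and day 25 and at 69.7% in embryoid bodies. Over the same stages N5 had 65.1%, 60.2%, 48.6% and 72.2%, with 65.1%, 61.0%, 47.9% and 71.4% in N9. Changes at the 5 genes are therefore given beside those of all genes, except in steps of 1 kb. Libraries labelled with the same clone differed in sex chromosome coverage. The first 3500000 bp of chromosome Y had 0.0370 (N5) and 0.0386 (N9) of the coverage of chromosome 5 at t=0, but 0.00123 and 0.000857 at day 10, then 0.0122 and 0.0103 at day 25, and at most 0.000866 in clone embryoid bodies. In the wild type this ratio ran from 0.000693 to 0.00178. Coverage of chromosome X relative to chromosome 5 ran from 0.511 to 0.695 over the clone libraries. The part of these differences in the results was not tested. Comparisons that do not use t=0 are given beside those that do. Those with day 25 are not free of these differences, since both clones' chromosome Y ratios then also exceeded the wild type's range. Over 16 ends of pluripotency genes N5 and N9 had median levels of 25.3% and 20.0% at t=0 and of 7.74% and 6.86% at day 25. Their embryoid bodies had 29.7% and 29.6%, against 11.5% in those of the wild type. Over 20 ends of fibroblast genes N5 and N9 had 52.1% and 52.1% at t=0, 37.6% and 37.5% at day 25 and, as embryoid bodies, 68.6% and 70.3%.

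The annotated starts of the 5 genes differed in CpG content, and the sequences show this directly. Below are 7 of the 12, each 300 bases from 250 before the start to 50 after it, 5′ to 3′ on the gene's strand, from RefSeq (GRCm38.p6), with every CpG in capitals. They are shown to set CpG-dense beside CpG-poor starts. Every CpG in these sequences was found in the deposited table at the expected position. The median over 32851 mouse promoters of this length was 7 CpGs. Starts are numbered from the 5′ end of the gene.
Dnmt1 start 1 (chr9:20959839-20960138, minus strand): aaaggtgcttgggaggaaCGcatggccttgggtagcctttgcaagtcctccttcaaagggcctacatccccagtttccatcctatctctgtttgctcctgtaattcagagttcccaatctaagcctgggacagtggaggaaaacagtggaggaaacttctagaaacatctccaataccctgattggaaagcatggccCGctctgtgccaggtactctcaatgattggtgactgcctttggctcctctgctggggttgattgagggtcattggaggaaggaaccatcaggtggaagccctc
Dnmt1 start 3 (chr9:20952574-20952873, minus strand): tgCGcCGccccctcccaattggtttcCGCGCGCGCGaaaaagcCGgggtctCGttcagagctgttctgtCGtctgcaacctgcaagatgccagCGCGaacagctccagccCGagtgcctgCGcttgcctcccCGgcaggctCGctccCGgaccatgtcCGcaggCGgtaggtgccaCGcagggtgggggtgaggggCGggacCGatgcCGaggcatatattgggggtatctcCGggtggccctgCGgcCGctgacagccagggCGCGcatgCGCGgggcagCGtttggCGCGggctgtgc
Uhrf1 start 1 (chr17:56303087-56303386, plus strand): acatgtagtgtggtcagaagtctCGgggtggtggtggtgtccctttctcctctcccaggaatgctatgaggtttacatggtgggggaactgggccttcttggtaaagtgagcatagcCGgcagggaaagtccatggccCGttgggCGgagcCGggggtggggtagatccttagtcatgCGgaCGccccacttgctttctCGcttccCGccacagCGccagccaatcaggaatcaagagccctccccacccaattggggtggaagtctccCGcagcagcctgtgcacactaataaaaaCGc
Dnmt3a start 3 (chr12:3891494-3891793, plus strand): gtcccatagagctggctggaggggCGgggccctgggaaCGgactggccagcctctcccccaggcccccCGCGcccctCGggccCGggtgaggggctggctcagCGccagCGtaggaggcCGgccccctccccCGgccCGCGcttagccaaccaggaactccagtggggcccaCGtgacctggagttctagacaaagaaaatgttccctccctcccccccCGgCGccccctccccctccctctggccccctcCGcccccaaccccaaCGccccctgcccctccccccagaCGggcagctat
Dnmt3b start 1 (chr2:153649199-153649498, plus strand): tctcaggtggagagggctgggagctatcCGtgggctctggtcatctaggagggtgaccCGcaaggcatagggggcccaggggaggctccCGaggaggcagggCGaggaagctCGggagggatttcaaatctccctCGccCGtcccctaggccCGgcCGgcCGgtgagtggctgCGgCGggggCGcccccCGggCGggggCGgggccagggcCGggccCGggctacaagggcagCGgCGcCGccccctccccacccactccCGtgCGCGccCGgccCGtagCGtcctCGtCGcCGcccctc
Dnmt3l start 1 (chr10:78042037-78042336, plus strand): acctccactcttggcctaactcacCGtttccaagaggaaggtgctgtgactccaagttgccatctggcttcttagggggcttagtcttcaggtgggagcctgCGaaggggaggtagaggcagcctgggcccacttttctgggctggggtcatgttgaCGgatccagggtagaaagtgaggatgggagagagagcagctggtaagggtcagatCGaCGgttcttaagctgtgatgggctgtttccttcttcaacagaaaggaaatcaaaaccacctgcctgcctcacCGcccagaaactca
Dnmt3l start 3 (chr10:78055085-78055384, plus strand): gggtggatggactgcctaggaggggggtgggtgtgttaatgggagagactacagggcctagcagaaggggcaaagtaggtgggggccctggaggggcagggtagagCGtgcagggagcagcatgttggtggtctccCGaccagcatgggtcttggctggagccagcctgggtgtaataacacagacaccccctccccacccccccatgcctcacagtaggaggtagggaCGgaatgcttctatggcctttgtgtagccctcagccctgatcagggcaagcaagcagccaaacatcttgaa

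The CpG-dense starts carried almost no methylation. Over the 300 bases shown, Dnmt1 start 3 (33 CpGs) stood between 0% and 0.391% in the 12 libraries, on 144 to 511 calls each. Dnmt3b start 1 (30 CpGs) stood between 0% and 5.08%, and Uhrf1 start 1 (12 CpGs) between 0% and 3.96%. The internal start 3 of Dnmt3a (18 CpGs) had 0% in all 12 libraries, but on only 4 to 66 calls each, so a low level was not detectable at this depth. The CpG-poor starts differed among themselves. The 2 CpGs of Dnmt1 start 1 were methylated at 73.1% to 96.8%, and the 6 CpGs of Dnmt3l start 1 at 51.9% to 75.0%. Dnmt3l start 3 (3 CpGs) ranged from 0% to 41.7%, on 9 to 30 calls. Dnmt3l start 2 (4 CpGs, not shown) was at 0% wherever it had calls, but with only 0 to 8 calls per library.

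All 5 gene bodies lost methylation in the clones between t=0 and day 25 and gained it again in embryoid bodies. Among all tested bodies, 96.2% fell in the first of these comparisons and 98.7% rose in the second, so the count of 5 of 5 in each is near that of the genome. Over all CpGs called in every library the clones at day 25 (48.6% and 47.9%) also lay below every other library (60.2% or more). The share of all bodies whose libraries do not overlap in this way was not counted. With each library centred on its median, limma called 0 of the 5 bodies in every comparison. Of the 34 calls that edgeR made at these bodies over all comparisons, 15 then kept their direction. The lowest limma adjusted p among them was 0.0511, in embryoid bodies against day 25. Over t=0, day 10 and day 25 the wild-type level of a body ranged over no more than 3.85 points (Uhrf1) and as little as 0.959 points (Dnmt3b). Calls were made with edgeR's quasi-likelihood test on methylated and unmethylated calls, with Benjamini-Hochberg adjustment over all features of a kind and a threshold of 0.05. A change in the clones is a difference between means of the 2 clones, in percentage points.

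The body of Dnmt1 (889 CpGs) was methylated at 65.5%, 52.9%, 43.7% and 71.7% over t=0, day 10, day 25 and embryoid bodies in N5, with 66.0%, 58.1%, 42.8% and 68.8% in N9. The wild type gave 58.4%, 59.3%, 60.5% and 66.2% at the 4 stages. The clones lay above the wild type at t=0 and in embryoid bodies and below it at day 10 and day 25, and their values at the 4 stages did not overlap. The same held over all CpGs called in every library. The body fell by 22.5 points from t=0 to day 25 (edgeR adjusted p = 4.28e-08) and rose by 27.0 points after it (edgeR adjusted p = 1.76e-09). Uhrf1, the partner of Dnmt1, moved the most of the 5 genes. Its body (284 CpGs) stood at 61.2%, 50.1%, 35.6% and 72.2% over the 4 stages in order in N5, with 62.3%, 59.2%, 34.6% and 65.3% in N9. Wild-type cells had 53.7%, 51.2%, 55.0% and 59.9%. Day 25 was lowest in both clones without overlap, as over all CpGs, while the clones lay 9.10 points apart at day 10. The body fell by 26.7 points (edgeR adjusted p = 1.34e-06) and then rose by 33.7 points (edgeR adjusted p = 5.31e-08). The median body of the genome fell by 18.1 points (quartiles -20.5 and -15.7) and rose by 25.3 points (quartiles 22.5 and 27.8), so Dnmt1 and Uhrf1 lay outside the quartiles in the fall and Uhrf1 also in the rise.

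The body of Dnmt3a (1666 CpGs), the longest of the 5 genes, was the one in which the clones were closest to each other, within 1.26 points at every stage. It was methylated at 56.1%, 51.1%, 39.1% and 64.0% from t=0 through to embryoid bodies in N5, with 55.6%, 51.1%, 37.8% and 63.6% in N9. Levels in the wild type were 53.5%, 54.9%, 53.1% and 63.6%. The 2 clones at day 25 lay below every other library, as over all CpGs, and in embryoid bodies clones and wild type had nearly the same level. Dnmt3a fell by 17.4 points (edgeR adjusted p = 8.46e-09) and rose by 25.4 points (edgeR adjusted p = 4.51e-11), both within the quartiles of all bodies. The body of Dnmt3b (425 CpGs), the other de novo enzyme, stood at 64.8%, 59.0%, 49.5% and 72.9% at the successive stages in N5, with 65.4%, 57.6%, 49.5% and 68.5% in N9. The wild-type library of each stage had 63.3%, 64.3%, 63.4% and 70.7%. Again the clones at day 25 were below every other library, as over all CpGs. The fall of -15.6 points in Dnmt3b (edgeR adjusted p = 4.05e-06) was the smallest of the 5 and the rise was 21.2 points (edgeR adjusted p = 7.64e-08), both just outside the quartiles of all bodies on the side of less change.

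The cofactor gene Dnmt3l had the least methylated body of the 5 (266 CpGs) at t=0. It stood at 45.0%, 35.3%, 29.4% and 44.7% over t=0, day 10, day 25 and embryoid bodies in N5, with 44.9%, 40.0%, 24.5% and 38.9% in N9. The wild type gave 37.96%, 37.98%, 36.7% and 32.0%. Wild-type embryoid bodies had the lowest of the 4 wild-type levels here, whereas in the other 4 gene bodies they had the highest. In the clones the body fell by 18.0 points to day 25 (edgeR adjusted p = 9.71e-06) and rose by 14.8 points after it (edgeR adjusted p = 4.10e-05), below the lower quartile of all bodies. At t=0 the order of the clones' mean body levels was Dnmt1 (65.8% ± 0.3327), Dnmt3b (65.1% ± 0.417), Uhrf1 (61.8% ± 0.793), Dnmt3a (55.9% ± 0.398) and Dnmt3l (44.9% ± 0.0811) (SD, n = 2). Dnmt1 and Dnmt3b lay within 1 point of each other, and the other neighbours differed by more than the spread of the clones.

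**Figure D1:**
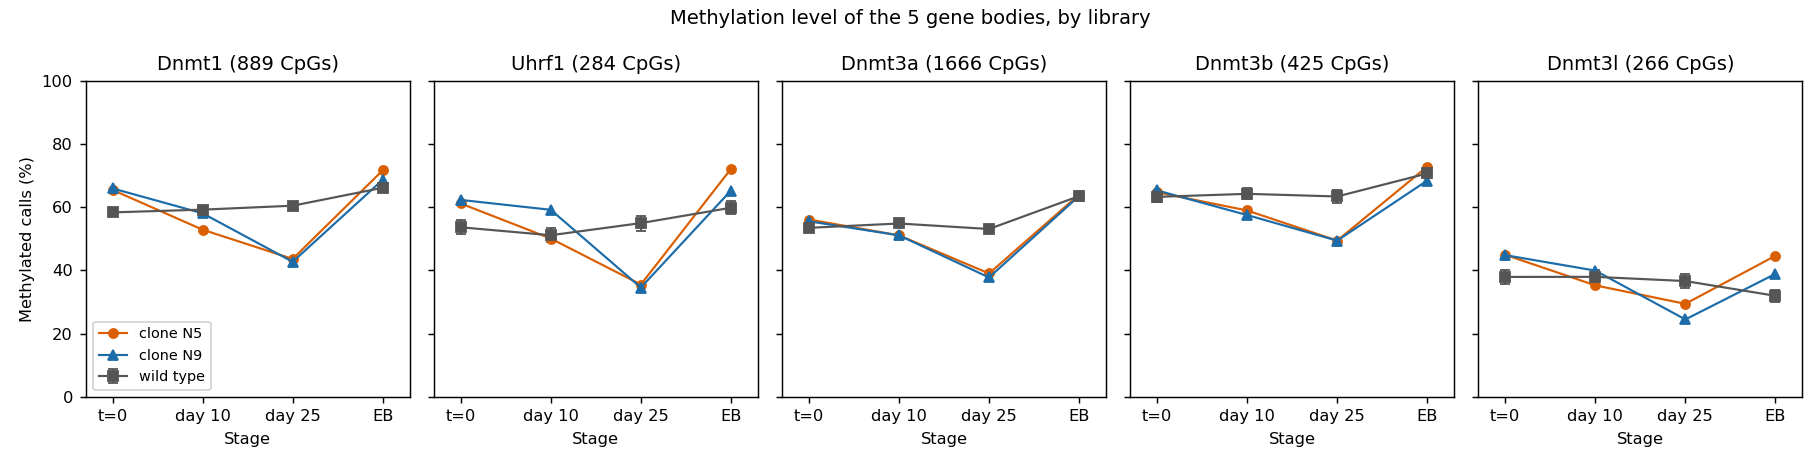
Methylation level (percent of calls) of the bodies of Dnmt1, Uhrf1, Dnmt3a, Dnmt3b and Dnmt3l at the 4 stages, with 1 point per library. Bars on the wild type are 95% Wilson intervals, which cover counting error only; both clones fall to their lowest level at day 25, for example to 35.6% and 34.6% in Uhrf1, and rise again in embryoid bodies (EB).

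At day 10 the bodies of Dnmt1, Dnmt3a, Dnmt3b and Dnmt3l were already lower than at t=0 (4 of 5 called, against 51.4% of all bodies). Their falls were -10.2, -4.73, -6.79 and -7.29 points, beside a median of -5.42 over all bodies. The call of Dnmt3l was lost with a flow cell term beside the block (edgeR adjusted p = 0.396), with limma (adjusted p = 0.0842) and without N5 of day 10 (edgeR adjusted p = 0.182). Uhrf1 changed by -7.12 points, which did not pass (edgeR adjusted p = 0.0653). In clone embryoid bodies 4 of the 5 bodies were higher than at t=0 (against 67.7% of all bodies), by 4.49 points in Dnmt1, 6.95 in Uhrf1, 7.95 in Dnmt3a and 5.62 in Dnmt3b. With the clone as a block Uhrf1 did not pass (edgeR adjusted p = 0.0552). Dnmt3l alone had a negative difference, -3.12 points (edgeR adjusted p = 0.298). Leaving out 1 clone library at a time, 1 body was called at day 10 without N5 of t=0 and 2 without N9 of t=0. In embryoid bodies against t=0, 1 body was called without N5 of t=0, without N9 of t=0 or without N5 of embryoid bodies.

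**Figure D2:**
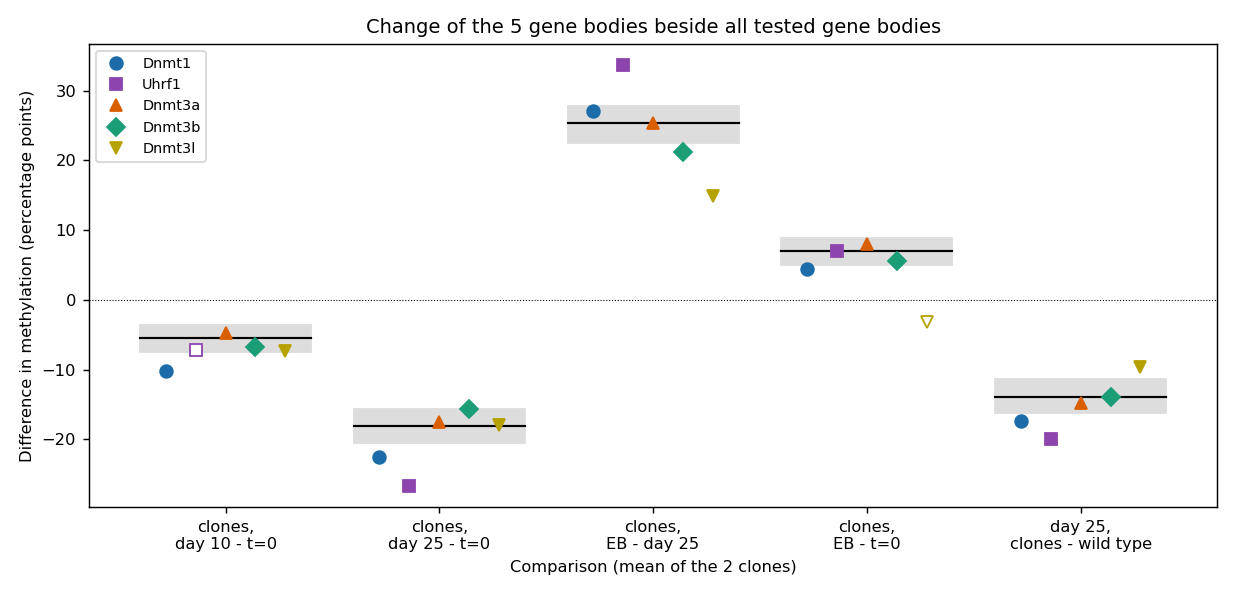
Difference in methylation (percentage points) of the 5 gene bodies in 5 comparisons, with filled symbols for edgeR adjusted p under 0.05. Grey boxes span the quartiles of all 17814 tested bodies and black lines their medians. Uhrf1 and Dnmt1 lie below the box at day 25, both against t=0 and against the wild type. Uhrf1 lies above the box in embryoid bodies against day 25 but inside it against t=0, and Dnmt3l lies below the box in both comparisons of embryoid bodies.

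Against the wild type, all 5 bodies were lower in the clones at day 25 (against 86.3% of all bodies). This comparison does not use t=0, but chromosome Y coverage was also above the wild type's in both clones at day 25. The differences were -19.9 points in Uhrf1, -17.3 in Dnmt1, -14.7 in Dnmt3a, -14.0 in Dnmt3b and -9.69 in Dnmt3l, beside a median of -13.9 over all bodies. The edgeR adjusted p ran from 1.67e-06 (Dnmt3a) to 0.00801 (Dnmt3l), and Dnmt3l was lost without the N9 library of day 25 (edgeR adjusted p = 0.0662). At t=0 the direction was the other way. Only Dnmt1 passed (1 of 5, against 18.8% of all bodies), 7.35 points higher in the clones (edgeR adjusted p = 0.0288). It did not pass with the clone as a block (edgeR adjusted p = 0.0658) or without any 1 of the clone libraries of t=0 and day 25. With a flow cell term beside the block the edgeR adjusted p was 0.803, and with limma the adjusted p was 0.125. No body of the 5 differed from the wild type at day 10 or in embryoid bodies by edgeR (0 of 5 each, against 0.0168% and 0.573% of all bodies), where 2 had an unadjusted p under 0.05 at each stage and limma also called 0. The differences ran from -5.99 points (Dnmt3b) to 3.50 points (Uhrf1) at day 10 and from -0.0491 points (Dnmt3b) to 9.82 points (Dnmt3l) in embryoid bodies.

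The change of the clones was then compared with that of the wild type over the same interval. From t=0 to day 25 all 5 bodies fell more in the clones (against 85.6% of all bodies), by -28.0 points in Uhrf1, -24.7 in Dnmt1, -17.1 in Dnmt3a, -16.6 in Dnmt3l and -15.7 in Dnmt3b. The median over all bodies was -18.4. From day 25 to embryoid bodies all 5 rose more in the clones (against 82% of all bodies), by 13.9 points in Dnmt3b up to 28.8 in Uhrf1, beside a median of 16.4. From t=0 to day 10 edgeR called 0 of 5 (against 3.48% of all bodies), with 3 at an unadjusted p under 0.05 and 0 called by limma. The de novo enzymes named as miR-203 targets, at 15.0 points (Dnmt3a) and 13.9 points (Dnmt3b) in the rise, lay within the quartiles of all bodies.

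Most outer gene ends fell and rose in the clones as the bodies did. Of the 10 ends, 9 fell in the clones from t=0 to day 25 (against 60.4% of all ends), and 9 rose from day 25 to embryoid bodies (against 84.7%). The median changes were -18.2 and 25.0 points, beside -13.2 and 20.9 over all ends. The end that did not pass in the fall was the CpG-dense 5′ end of Dnmt3b (131 CpGs; edgeR adjusted p = 0.0600), and in the rise the 5′ end of Dnmt3l, which the gene Aire overlaps (edgeR adjusted p = 0.0797). No end passed at day 10 or in embryoid bodies against t=0 by edgeR (0 of 10 each, against 0.151% and 10.9% of all ends), where 3 and 2 had an unadjusted p under 0.05 and limma also called 0.

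The largest fall among the ends was at the 3′ end of Uhrf1 (24 CpGs). It stood at 68.8%, 43.6%, 37.99% and 75.0% over the 4 stages in order in N5, with 82.6%, 51.1%, 43.0% and 63.8% in N9. Wild-type cells had 57.1%, 64.2%, 53.5% and 58.9%. Both clones were already low at day 10 and lower at day 25, with no overlap with t=0, as over all CpGs. The fall of -35.2 points to day 25 passed (edgeR adjusted p = 0.000182), and the difference of -28.3 points at day 10 did not (edgeR adjusted p = 0.0589). On the 78 to 179 calls per library behind these values, the clones lay furthest apart at t=0.

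The largest difference from the wild type among the ends at day 25 was at Dnmt1. Its 3′ end (41 CpGs) stood at 74.1%, 69.9%, 60.3% and 86.4% from t=0 through to embryoid bodies in N5, with 79.9%, 73.8%, 53.2% and 77.0% in N9. Levels in the wild type were 67.9%, 72.5%, 85.3% and 78.5%, so its day 25 library was its highest where the clones had their lowest. At day 25 this end was -28.6 points lower in the clones (edgeR adjusted p = 0.00436) and the 5′ end -17.9 points (edgeR adjusted p = 0.0485). The third end called was the 5′ end of Dnmt3b, at 1.98% and 2.24% in N5 and N9 against 5.94% (edgeR adjusted p = 0.0489), so 3 of 10 ends were lower (against 17% of all ends). With the clone as a block the 3′ end of Dnmt1 alone was called, and the 5′ ends of Dnmt3b and Dnmt1 were not (edgeR adjusted p = 0.0572 and 0.0744); the same 5′ ends were lost without N5 or without N9 of day 25, and limma called 0 of the 3. The fall from t=0 to day 25 was larger in the clones than in the wild type at both ends of Dnmt1 (2 of 10, against 9.95% of all ends) and the later rise at its 3′ end (1 of 10, against 9.03%). Without N9 of day 25 none of these 3 differences passed (edgeR adjusted p = 0.0530, 0.0872 and 0.0627), without N5 of embryoid bodies the last did not (edgeR adjusted p = 0.0599), and limma called 0. The 5′ end was also lost without N5 of day 25 or either clone library of t=0. By edgeR 0 of 10 ends differed from the wild type at t=0, at day 10 or in embryoid bodies (against 0.314%, 0.0226% and 0.0627% of all ends), or in the change from t=0 to day 10 (against 0.01%). In these 4 comparisons 2, 1, 0 and 1 ends had an unadjusted p under 0.05, and limma called 0.

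Most annotated starts had low levels and small changes in points. Windows of 1000 bp on either side can overlap between neighbouring starts. At the first start of a gene the window is or nearly is that of its 5′ end. The exception is Dnmt3a, whose start 1 lies 5.421 kb into the gene. Of 12 start windows, 8 fell from t=0 to day 25 (against 51% of all start windows) and 10 rose from day 25 to embryoid bodies (against 80.8%). The median changes were -2.56 and 3.19 points, beside -7.49 and 14.9 over all start windows. At Dnmt3a start 1 (255 CpGs) the level went from 1.13% and 1.26% in N5 and N9 at t=0 to 0.189% and 0.186% at day 25, while embryoid bodies of the clones had 2.08% and 1.29%. These changes passed (edgeR adjusted p = 0.0229 and 0.000817), although no library was above 2.08%, on 265 to 1061 calls per library. The fall was lost without any 1 clone library of t=0 or day 25 and with 500 bp on either side. At Dnmt3b start 1 the corresponding levels were 3.02% and 5.21%, 1.98% and 2.24%, and 7.74% and 4.41%, and only the rise passed (edgeR adjusted p = 0.00234). At Dnmt1 start 3 (88 CpGs) all 12 libraries lay between 0.155% (N9, day 25) and 3.87% (N5, embryoid bodies), while start 1 of the same gene, 7.265 kb upstream and with 28 CpGs, lay between 57.6% (N9, day 25) and 87.0% (N5, embryoid bodies). The fall passed at both (edgeR adjusted p = 0.0209 and 0.00397). With windows of 500 bp on either side, 2 start windows fell and 3 rose, and at Dnmt1 start 3 the sign of the fall turned. Without N5 of t=0 or without N9 of day 25, 3 fell, and without N5 of embryoid bodies 6 rose.

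The internal start 3 of Dnmt3a lies 90.2 kb into the gene. Its window (74 CpGs, shared with the gene Gm31623) stood at 2.98%, 6.02%, 2.23% and 5.66% at the successive stages in N5, with 4.02%, 4.61%, 1.01% and 4.30% in N9. The wild-type library of each stage had 8.70%, 7.66%, 7.20% and 8.97%, above both clones at each stage. It was the only start window called against the wild type at day 25, -5.58 points (edgeR adjusted p = 0.0207; 1 of 12, against 13.8% of all start windows). The call was lost with 500 bp on either side, where the sign turned, and also with limma, with CpGs called in every library, with a flow cell term and without the N9 library of day 25.

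Dnmt3l start 3, 13.0 kb into the gene, was the one start window at which embryoid bodies of the clones and of the wild type differed (1 of 12 higher, against 0.169% of all start windows). Its window (25 CpGs, 127 to 277 calls per library) stood at 33.7%, 13.8%, 16.2% and 43.7% over t=0, day 10, day 25 and embryoid bodies in N5, with 39.3%, 30.7%, 12.4% and 39.6% in N9. The wild type gave 14.4%, 15.6%, 12.3% and 6.28%. The clones were thus above the wild type at t=0, on either side of it at day 10, at or above it at day 25, and stood apart from it in embryoid bodies by 35.4 points (edgeR adjusted p = 0.000689). The rise from day 25 was 33.4 points larger in the clones than in the wild type (edgeR adjusted p = 0.0132; 1 of 12, against 8.65% of all start windows). Of the 25 CpGs, 22 had at least 5 calls in the clones and 3 in the wild type in embryoid bodies, and the clones were higher at 22 of these 22, while the wild type had 0 methylated calls at 13. This window was singled out after its values were seen, so the count over its CpGs describes the same difference and adds no support to it. The difference did not pass with limma (adjusted p = 0.171) or with a flow cell term beside the block (edgeR adjusted p = 0.641); the N5 library of embryoid bodies ran on another flow cell than the N9 and wild-type ones. The 10 days given for embryoid bodies of the wild type, against 7 in the design, cannot be told apart from genotype here. The same holds for doxycycline, which their label does not name.

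At the other starts of Dnmt3l the clones were also above the wild type in embryoid bodies, by 7.57 points at start 1 and 3.66 at start 2, which did not pass (edgeR adjusted p = 0.763 and 0.718). The difference in the change from day 25 was 13.8 points at start 2 (edgeR adjusted p = 0.0743), and the starts were not tested against each other. Start 2 (42 CpGs), 7.555 kb into the gene, stood at 19.1%, 17.0%, 11.9% and 9.98% over the 4 stages in order in N5, with 23.4%, 13.9%, 6.00% and 12.6% in N9. Wild-type cells had 32.4%, 26.2%, 19.1% and 7.64%, lower at each later stage. It was the only start window lower in clone embryoid bodies than at t=0 (edgeR adjusted p = 0.0474; 1 of 12, against 0.0683% of all start windows), a call lost with limma, with the wild-type columns apart and without any 1 clone library of t=0 or embryoid bodies. Start 1, shared with Aire, stood at 62.6% and 56.3% at t=0 and 41.3% and 40.2% at day 25, and the wild type at 54.7% and 40.6%. The change of start windows from t=0 to day 25 exceeded that of the wild type at Dnmt1 start 1 (1 of 12, against 5.1% of all start windows), a call lost without any 1 clone library of t=0 or day 25. By edgeR 0 of 12 start windows passed from t=0 to day 10 (against 0.208% of all), against the wild type at t=0 or day 10 (against 0.614% and 0.0845%), or in the difference of changes to day 10 (against 0.026%). Unadjusted p values were under 0.05 at 4, 2, 2 and 1 of them, and limma called 0.

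**Figure D3:**
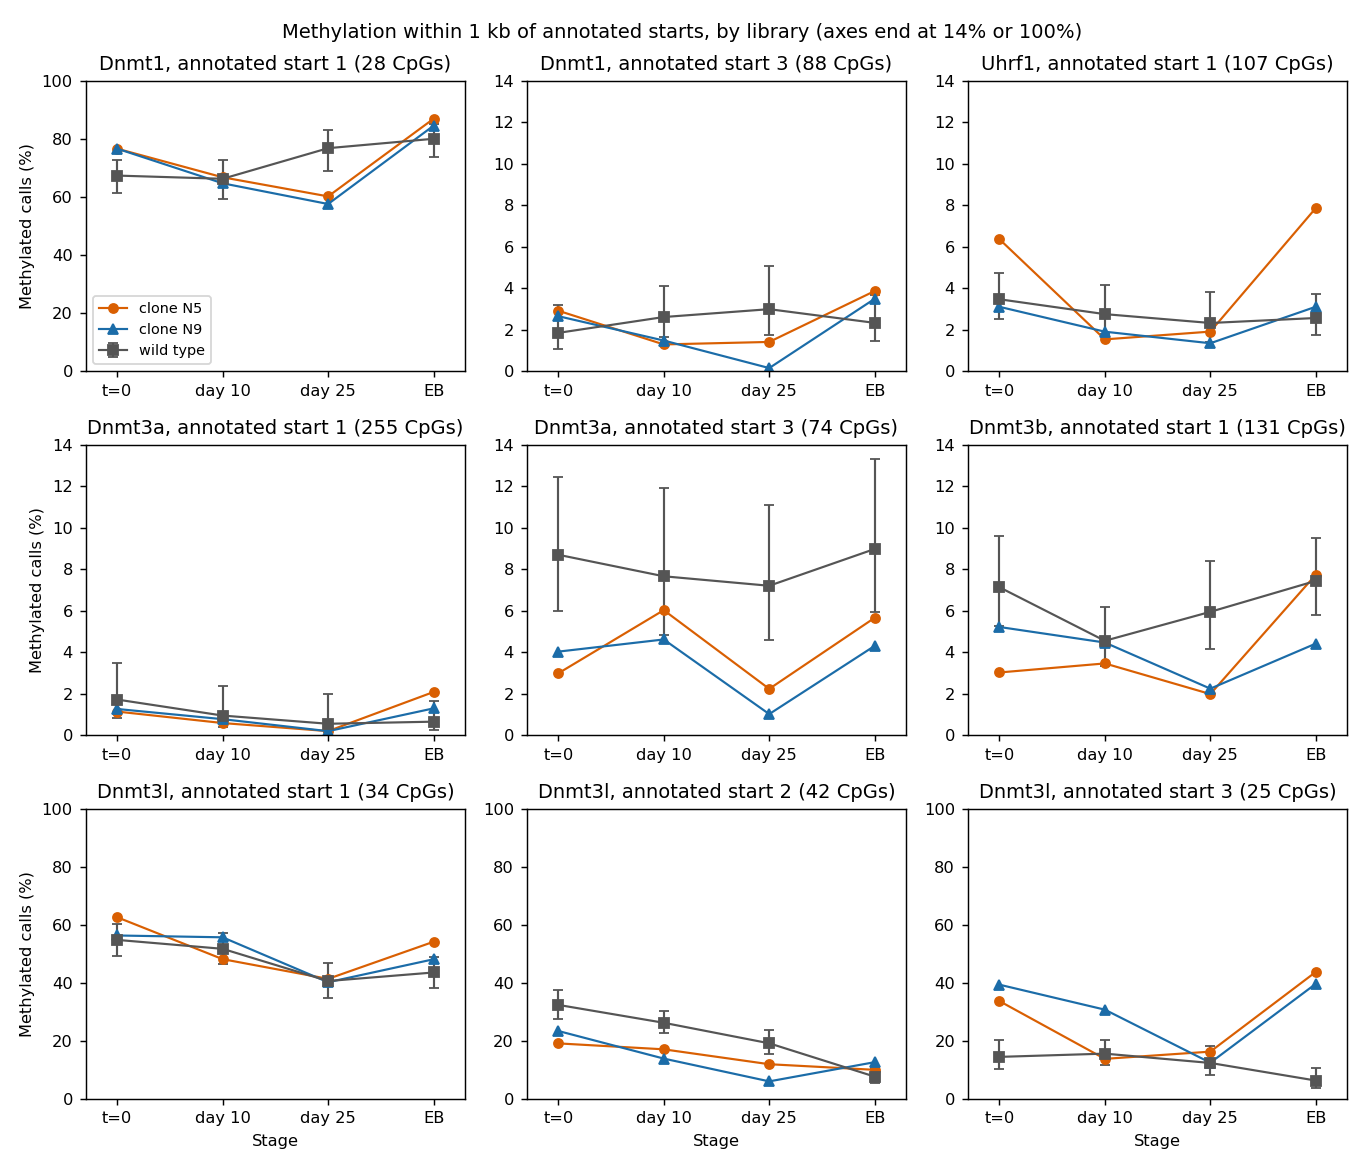
Methylation level (percent of calls) within 1000 bp of 9 annotated starts at the 4 stages, with 1 point per library and 95% Wilson intervals (counting error only) on the wild type. The CpG-dense starts of Dnmt1, Uhrf1, Dnmt3a and Dnmt3b stay below 10%, and at Dnmt3l start 3 both clones (43.7% and 39.6%) lie above the wild type (6.28%) in embryoid bodies (EB).

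Along the genes, the fall at day 25 was found in nearly every bin. Of the 53 bins of 5 kb over the 5 genes, 52 were lower at day 25 than at t=0 in the clones (against 87.1% of all bins), and 52 were higher in embryoid bodies than at day 25 (against 97.8%). The falls ran from -39.2 to -5.29 points with a median of -19.7, beside -16.7 over all bins. In Uhrf1 all 5 bins fell (median -26.7 points), in Dnmt1 all 11 (-24.4), in Dnmt3l all 5 (-21.4), in Dnmt3b all 9 (-19.2) and in Dnmt3a 22 of 23 (-17.9). At day 10, 6 of the 53 were lower (against 2.31% of all bins), 4 of them in Dnmt1, 1 in Uhrf1 and 1 in Dnmt3b, and limma called 0 of these. In clone embryoid bodies 28 of the 53 bins were higher than at t=0 (against 34.5% of all bins), 18 of them in Dnmt3a. Of the 53, 1 bin, in Dnmt3l, was lower (against 0.0755% of all bins). Against the wild type at day 25, 44 of the 53 bins were lower (against 50.6% of all bins): 21 of 23 in Dnmt3a, 10 of 11 in Dnmt1, 8 of 9 in Dnmt3b, 4 of 5 in Uhrf1 and 1 of 5 in Dnmt3l. The fall to day 25 was larger in the clones than in the wild type at 37 of the 53 bins (against 44.2% of all bins). The rise after it was larger at 35 of the 53 bins (against 34.9% of all bins).

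In steps of 1 kb the same picture held at finer scale. Of 52 steps in Dnmt1 with calls in every library, 36 were above 70% at t=0 in the mean of the clones and 0 at day 25. Of 20 steps in Uhrf1 13 were above 70% at t=0 and 0 at day 25. In Dnmt3b the numbers were 25 and 2 of 37 steps, in Dnmt3a 45 and 3 of 111, and in Dnmt3l 9 and 0 of 20. Both clones were lower at day 25 in 50 of the 52 steps of Dnmt1, 19 of 20 in Uhrf1, 34 of 37 in Dnmt3b, 96 of 111 in Dnmt3a and 18 of 20 in Dnmt3l. The wild type, with 1 library per stage, was lower at day 25 in 19, 12, 16, 56 and 11 of these steps. Steps of 1 kb were not counted over other genes, so no share of the genome stands beside these counts. Among all bins of 5 kb, 87.1% were called lower at day 25 than at t=0 in the clones.

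**Figure D4:**
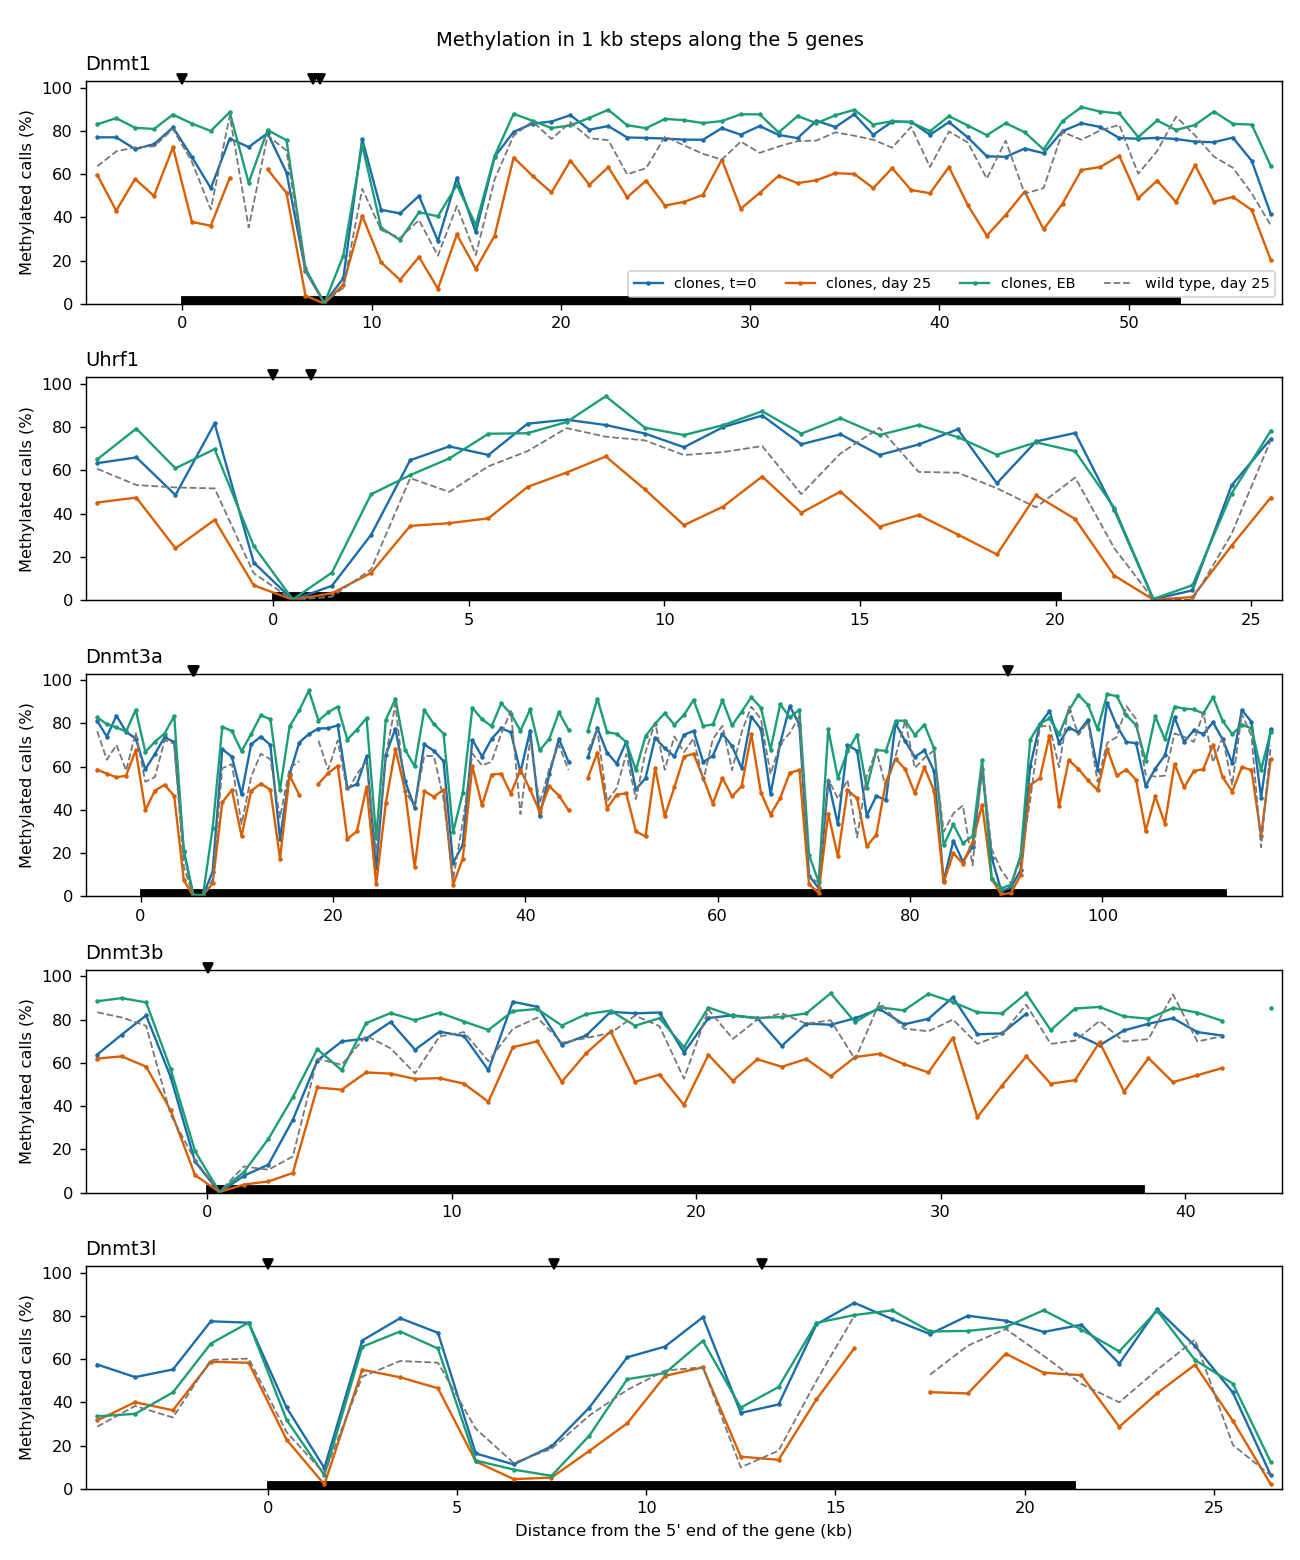
Methylation level (percent of calls) in 1 kb steps from 5 kb before to 5 kb after each gene, drawn in the direction of transcription, as the mean of the 2 clones at t=0, day 25 and in embryoid bodies (EB), with the wild type at day 25 as a dashed line. Black bars mark the gene and triangles its annotated starts; the day 25 line of the clones lies below the others over most of each gene, and all lines dip towards 0 at the CpG-dense starts.

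The wider machinery was read from a list of 26 other genes that add, remove or bind DNA methylation or set the histone marks linked to it, among them the Tet enzymes, which oxidise methylcytosine. All 24 bodies tested in it fell from t=0 to day 25 (median -20.1 points) and rose to embryoid bodies (median 25.9), and 22 were lower than in the wild type at day 25, beside 96.2%, 98.7% and 86.3% of all bodies. Of 52 ends, 28 fell (median -11.1 points) and 44 rose (median 20.5), beside 60.4% and 84.7% of all ends, so these counts too are near those of the genome. The 3 ends with the lowest p for the fall were the 3′ end of Zfp57, whose protein protects imprints from loss of methylation (from 41.2% ± 5.03 to 12.5% ± 3.95, edgeR adjusted p = 0.000128), the 5′ end of Zfp57 (from 54.8% ± 6.25 to 22.4% ± 1.23, edgeR adjusted p = 0.000133) and the 3′ end of Tet1 (from 68.5% ± 0.654 to 37.7% ± 2.39, edgeR adjusted p = 0.000219), each as mean ± SD of n = 2 clones. At the bodies they were those of Ehmt1 (72.9% ± 0.234 to 52.9% ± 0.587), Tet3 (65.5% ± 1.49 to 48.0% ± 0.410) and Kdm1b (74.4% ± 2.56 to 54.1% ± 1.15). The falls of Dnmt1 and Uhrf1 (-22.5 and -26.7 points) were larger than this list's median and those of Dnmt3a, Dnmt3b and Dnmt3l (-17.4, -15.6 and -18.0 points) smaller.

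For each gene, the body whose levels over the 12 libraries were nearest was found among 15493 other bodies (15492 for Dnmt3l), by the root mean square difference. For Dnmt1 it was Dyrk1a (0.829 points), for Dnmt3a Nectin1 (1.00), for Dnmt3b Bbs2 (1.22), for Uhrf1 Manbal (1.49) and for Dnmt3l Senp3 (2.42). Dnmt1 and Dnmt3a thus had bodies within about 1 point of theirs on average over the libraries, whereas the nearest to Dnmt3l was more than 2 points away.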

How the data were processed

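Oxidative bisulfite whole-genome sequencing (TrueMethyl kit), which reads 5-methylcytosine without 5-hydroxymethylcytosine, was applied to 12 libraries. The deposited table gives, per the file headers, a count of methylated calls and a count of all calls (coverage) at each of 21875444 CpGs. BWA, Picard 1.91 and mm10 are named in the submitters' processing notes (which program called methylation was not stated there). The wild type has 2 columns of counts per stage, named rep1 and rep2 in the file headers. They were summed as 1 library because the sample titles show lanes of 1 flow cell with 1 index; whether they are separate cultures is not known, and rep1 held 0.560 to 0.599 times the calls of rep2. Calls were summed within 1000 bp of gene ends and annotated starts, over bodies (genes over 3000 bp) and in bins of 5000 bp, keeping features with 5 CpGs and at least 10 calls (bins 30) in every library. The start windows were added after the files had been seen.

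Methylated and unmethylated counts were fitted with edgeR 4.0.16 (quasi-likelihood, common dispersion, 8 groups, 4 residual degrees of freedom, R 4.3.3) in 11 comparisons, with Benjamini-Hochberg adjustment over all features of a kind. Wild-type cells, with 1 library at each stage, were assumed to vary like the clones, and p-values measure only the spread between these samples. limma 3.58.1 on logit levels (0.5 added), a block for the clone, a flow cell term, other windows and left-out libraries were tried. The clone names in the labels pair the libraries across stages; deviations of N5 correlated at -0.151 to 0.0265 between stages over 17814 bodies. The fit was also run on simulated counts of gene ends in which only a small part of the ends changed. In these data most ends fell to day 25 in the clones, so that run cannot show how the fit behaves here. Tables and figures used Python 3.11.15, numpy 2.4.6, pandas 2.3.3 and matplotlib 3.10.9. Wilson intervals (95%) cover counting error only. The genes and lists were chosen with earlier results of these data known. Named genes of the pathway list are the 3 ends and 3 bodies with the lowest p for the fall to day 25.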

Additional observations from a re-analysis of the deposited data

Results flagged for a closer look

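The change of the clones differed from that of the wild type, by edgeR's interaction test, at 14 results. From t=0 to day 25 the bodies fell more in the clones, by -28.0 points in Uhrf1 (adjusted p = 0.000311), -24.7 in Dnmt1 (1.47e-05), -17.1 in Dnmt3a (8.04e-06), -16.6 in Dnmt3l (0.00313) and -15.7 in Dnmt3b (0.00101). From day 25 to embryoid bodies they rose more, by 28.8 points in Uhrf1 (adjusted p = 0.000284), 21.4 in Dnmt1 (5.62e-05), 19.5 in Dnmt3l (0.0012), 15.0 in Dnmt3a (3.11e-05) and 13.9 in Dnmt3b (0.00273). At the ends of Dnmt1 the differences to day 25 were -37.7 points (3′ end, adjusted p = 0.0177) and -27.2 points (5′ end, adjusted p = 0.0405), and the 3′ end then rose by 31.8 points more (adjusted p = 0.0205). At Dnmt3l start 3 the rise was 33.4 points larger in the clones (adjusted p = 0.0132). Each wild-type stage is 1 library. Among all bodies, 85.6% fell more and 82% rose more in the clones. The shares were 9.95% and 9.03% of all ends, and 8.65% of all start windows in the rise. limma called 0 of the end and start differences, and with each library centred on its median it called 0 bodies.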

How the results depend on the processing

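Counts are of the 10 ends, 5 bodies, 12 start windows and 53 bins. "Difference" is the change of the clones less that of the wild type. With CpGs called in every library, 1 end was called at day 10 against t=0, 1 end in the difference to day 25, 1 body in the difference to day 10 and 0 starts in the difference to day 25. With each library centred on its median, limma called 0 ends and 0 bodies in every comparison. With 500 bp, 5 ends fell to day 25, 1 differed from the wild type at day 25, and 1 and 0 in the differences to day 25 and to embryoid bodies; 2 starts fell, 3 rose and 0 passed in both differences. There the log2 odds reversed to 0.43 at Dnmt1 start 3 (day 25 against t=0) and to 3.42 at Dnmt3a start 3 (clones against wild type, day 25); the cause was not tested. With 2000 bp, 1 end was called in embryoid bodies against t=0, 5 against the wild type at day 25, and 5 and 4 in the differences.

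With the clones as a replicate block, 1 end was called against the wild type at day 25 and 0 bodies at t=0, and beside these the block ended the call of the Uhrf1 body in embryoid bodies against t=0 (adjusted p = 0.0552) and no other. With a flow cell term as well, it was 1 end at day 25, 2 ends in the difference to embryoid bodies, 0 bodies at t=0, and 0, 0 and 3 starts against the wild type at day 25, in embryoid bodies and in the difference to embryoid bodies. limma called 0 ends against the wild type at day 25 and in both differences, 2 bodies in embryoid bodies against t=0, 0 bodies at t=0, 0 starts in embryoid bodies against t=0, against the wild type at day 25 and in embryoid bodies, and in both differences, and 0, 14, 24 and 15 bins at day 10, in embryoid bodies against t=0 and in the differences. With the wild-type columns apart, 2 ends passed in the difference to embryoid bodies, 3 bodies at t=0, 2 in embryoid bodies, 3 in the difference to day 10, and 0, 1, 4 and 3 starts in embryoid bodies against t=0, against the wild type at t=0 and day 25, and in the difference to embryoid bodies. With whole genes, 2 bodies were called at day 10 and 2 in embryoid bodies against t=0; with bins of 10000 bp, 11 at day 10.

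Leaving out 1 clone library at a time gave 1 to 3 ends against the wild type at day 25, 0 to 3 and 0 to 1 in the differences; 1 to 5 bodies at day 10, 1 to 4 in embryoid bodies against t=0, 0 to 2 against the wild type at t=0 and in embryoid bodies, 0 to 2 in the difference to day 10; and 0 to 1 starts at day 10, 3 to 8 at day 25, 6 to 10 in embryoid bodies against day 25, 0 to 1 against t=0, 0 to 1 and 0 to 3 against the wild type at t=0 and day 25, and 0 to 1 and 1 to 3 in the differences. The 2 bodies against the wild type in embryoid bodies were called without N5 or N9 of day 10, the 2 in the difference to day 10 without N9 of day 10, and the 3 starts against the wild type at day 25 and in the difference to embryoid bodies without N5 of day 25. It was not run for bins. Few calls limit the 300 bases at Dnmt3l start 2 (0 to 8 calls per library) and at the Dnmt3a starts (at least 1, 1 and 4).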
